A study of Mus musculus with 12 samples.

Results

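The mitochondrial ribosomal proteins are the proteins that, with the mitochondrial ribosomal RNAs, make up the ribosome inside mitochondria. Their genes were followed here in cultured mouse macrophages with and without Dicer, each given lipopolysaccharide (LPS) or vehicle. The genes were chosen by name, as the protein-coding mouse genes whose symbol starts with Mrpl or Mrps and a number, and by level, as 10 or more counts in 3 or more of the 12 libraries. The name gave 78 genes among the 46078 identifiers in the files, and 77 passed on level. All 77 had 10 or more counts in all 12 libraries, between 23 and 1789 counts a library, so none passed through only some of the groups. The exception was Mrpl53, which had 0 counts in every library. Of its exon bases, 88.0% are shared with Gm42688 on the same strand, and what this did to its count was not tested.

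There were 4 groups of 3 libraries each. The Dicer KO macrophages were labelled LysMcre/+;Dicerfl/fl;ApoE-/-, a genotype in which Cre under the LysM (Lyz2) promoter removes the floxed Dicer gene in myeloid cells. They were given LPS or vehicle. The control macrophages, from littermates labelled LysMcre/+;Dicer+/+;ApoE-/-, were given LPS or vehicle in the same way. All groups thus lacked ApoE, and all cells came from male C57BL/6 mice, were grown from bone marrow for 7 days in L929 cell supernatant and had ethanol overnight before treatment. LPS, a component of the wall of Gram-negative bacteria that macrophages sense through Toll-like receptor 4, was labelled as 100 ng/ul for 6 h, and the vehicle was phosphate-buffered saline. Whether the 3 libraries of a group came from separate mice is not stated in the labels, so a p-value here rests on the spread among these libraries, which may be technical.

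The mitochondrial ribosome translates the mRNAs copied from mitochondrial DNA, which encode core subunits of the respiratory chain and of ATP synthase. All of its proteins are encoded in the nucleus, made in the cytosol and imported. The small subunit (most Mrps proteins) holds the mRNA and reads its codons, and the large subunit (most Mrpl proteins) joins the amino acids and lets the chain out at the inner membrane. Some of the proteins descend from those of bacterial ribosomes, and others were gained in mitochondria. Macrophages given LPS are known for a shift of metabolism from oxidative phosphorylation towards glycolysis.

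Gene counts per library ran from 18671876 to 18785476 in Dicer KO LPS, 17136578 to 17941058 in control LPS, 16172600 to 18084877 in Dicer KO vehicle and 18552400 to 18886948 in control vehicle. Dicer1, the gene deleted, averaged 15.5 CPM (gene counts scaled to a common library size) in Dicer KO LPS against 49.4 CPM in control LPS, and 19.7 CPM in Dicer KO vehicle against 43.7 CPM in control vehicle. Lyz2 averaged 18.9 CPM in Dicer KO LPS against 4060 CPM in control LPS, and 14.1 CPM in Dicer KO vehicle against 5714 CPM in control vehicle. By the fit, Lyz2 was 215-fold lower with LPS and 405-fold lower with vehicle in Dicer KO macrophages. The titles give LysMcre/+ to both genotypes, while another label calls the controls wildtype. Whether the labelled genotypes account for these Lyz2 levels was not tested. Dicer loss and the state of the LysM locus therefore cannot be told apart in any genotype comparison. The 10 macrophage markers were detected and summed to between 7930 and 11540 CPM in a library. Of the 8 erythroid markers 4 were at 0 in all libraries, Hba-a1, Hba-a2 and Hbb-bs among them. So were 3 of 7 mast cell markers (Fcer1a, Tpsab1 and Tpsb2) and Ncr1 among lymphocyte markers. The erythroid markers summed to at most 0.150 CPM in Dicer KO LPS, 0.372 CPM in control LPS, 0.933 CPM in Dicer KO vehicle and 0.570 CPM in control vehicle. The mast cell markers summed to at most 0.676, 0.242, 0.465 and 0.125 CPM in the same order. Among the other marker lists, the sums of T and NK lymphocyte, dendritic cell, stromal and neutrophil markers were higher with LPS without overlap. The 9 T and NK lymphocyte markers summed to between 37.6 and 40.9 CPM in Dicer KO LPS, 16.1 and 19.8 CPM in control LPS, 7.83 and 8.89 CPM in Dicer KO vehicle and 10 and 10.9 CPM in control vehicle. Lck, at 35.5 and 13.9 CPM in Dicer KO LPS and control LPS, made most of the LPS sums, and 7 of the 9, the CD3 genes among them, were under 1 CPM in every group mean. Cd4 went the other way and made most of the vehicle sums. It averaged 3.76 CPM in Dicer KO LPS against 8.03 CPM in Dicer KO vehicle, and 3.79 CPM in control LPS against 9.71 CPM in control vehicle. The 7 dendritic cell markers summed to between 17.6 and 19.4 CPM in Dicer KO LPS, 8.05 and 10.5 CPM in control LPS, 3.86 and 6.84 CPM in Dicer KO vehicle and 3.16 and 3.8 CPM in control vehicle. Ccr7 and Xcr1 together made most of the LPS sums, at 9.07 and 7.14 CPM in Dicer KO LPS and 5.16 and 1.5 CPM in control LPS. With vehicle they were at 0.736 and 1.59 CPM in Dicer KO and 0.355 and 0.301 CPM in control macrophages, which is not most of the vehicle sums. The 8 stromal markers summed to between 33.9 and 37.3 CPM in Dicer KO LPS, 22.9 and 25.2 CPM in control LPS, 0.772 and 1.4 CPM in Dicer KO vehicle and 0.669 and 1.25 CPM in control vehicle, and Pdgfrb, at 34.5 and 23.2 CPM with LPS, made nearly all of it. The 7 B lymphocyte markers summed to at most 1.05 CPM in Dicer KO LPS, 2.11 CPM in control LPS, 4.05 CPM in Dicer KO vehicle and 5.06 CPM in control vehicle. Neutrophil markers summed to between 157 and 180 CPM in Dicer KO LPS, 148 and 160 CPM in control LPS, 93.9 and 125 CPM in Dicer KO vehicle and 101 and 134 CPM in control vehicle. The part of these markers in the changes of the members was not tested. Of the vehicle libraries, Dicer KO replicate 2 (chi-square per degree of freedom of 11.9 and 8.4 against the other two, which had 2.30 between them) and control replicate 3 (14.1 and 9.84, with 2.54 between the others) stood apart from their groups. Dicer KO LPS replicate 1 stood apart by a smaller chi-square but a like ratio (4.20 and 5.06, with 1.32 between the others).

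Levels are given as CPM under TMM scaling (trimmed mean of M-values), which sets the bulk of genes equal between libraries, and every fold change is relative to that bulk. The scaling matters here. As raw CPM of all gene counts, the 77 genes summed to 929 to 944 in Dicer KO LPS, 1212 to 1246 in control LPS, 1571 to 1674 in Dicer KO vehicle and 1721 to 1802 in control vehicle. After TMM their summed level was nearly flat, at 1319 ± 14.1 CPM in Dicer KO LPS, 1352 ± 15.7 CPM in control LPS, 1355 ± 36.4 CPM in Dicer KO vehicle and 1347 ± 43.5 CPM in control vehicle (SD, n = 3 each). These are bulk samples, in which fewer cells of a type and less RNA per cell cannot be told apart.

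The subunits differed within this flat sum. The 26 small-subunit genes summed to 303.7 ± 6.63 CPM in Dicer KO LPS against 388.6 ± 13.2 CPM in Dicer KO vehicle, and to 336.3 ± 6.54 CPM in control LPS against 400.2 ± 17.5 CPM in control vehicle (SD, n = 3 each). No LPS library overlapped a vehicle library in this sum, and the Dicer KO LPS libraries, at 298 to 311 CPM, lay below the control LPS libraries, at 329 to 341 CPM. The sum includes Mrps25, with 69.8% of its exon bases overlapped by Nr2c2 on the opposite strand. Mrps25 averaged 21.1 CPM in Dicer KO LPS against 34.4 CPM in Dicer KO vehicle, and 23.6 CPM in control LPS against 41.9 CPM in control vehicle. The small-subunit sum without Mrps25 is not given here. The 50 large-subunit genes summed to 1010 ± 8.30 CPM in Dicer KO LPS against 960 ± 23.4 CPM in Dicer KO vehicle, and to 1011 ± 9.11 CPM in control LPS against 940 ± 25.6 CPM in control vehicle. A single gene, Mrpl52, made most of that gap: without it the large subunit summed to 951 ± 10.2 CPM in Dicer KO LPS against 952 ± 23.6 CPM in Dicer KO vehicle, and to 954 ± 14.2 CPM in control LPS against 933 ± 24.9 CPM in control vehicle. Mrps36, which is counted with the mitochondrial ribosomal proteins by name only and belongs to the 2-oxoglutarate dehydrogenase complex, is in neither sum.

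**Figure D1:**
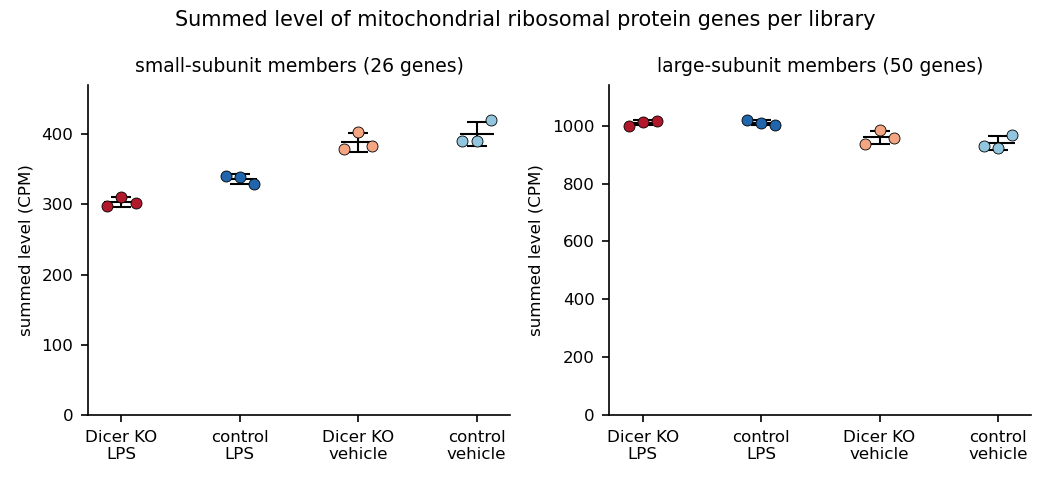
Summed level (CPM, TMM-scaled) of the large-subunit and small-subunit genes in each of the 12 libraries, by group, with the mean and SD of 3 libraries. The small-subunit sum is between 298 and 341 CPM in all LPS libraries and between 379 and 420 CPM in all vehicle libraries.

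The effect of LPS was compared within each genotype. In Dicer KO macrophages, 39 of the 77 members were lower with LPS than with vehicle (50.6%) and 15 were higher (19.5%), by edgeR's quasi-likelihood test at an adjusted p under 0.05. Among all 13837 genes tested, 42.7% were lower and 37.4% were higher, so the share of members that was lower was somewhat above this background and the share that was higher was below it. In control macrophages, 35 members were lower (45.5%) and 22 were higher (28.6%), where 41.1% of all genes were lower and 38% were higher. The median log2 fold change was -0.20 for members in Dicer KO macrophages, where that of all genes was -0.10, and -0.15 for members in control macrophages, where that of all genes was -0.06. Scaled by library totals in place of TMM, 69 members were lower and 4 higher in Dicer KO macrophages, and 62 were lower and 4 higher in control macrophages. That scaling also lowered the median of all genes by 0.75 and by 0.52 on the log2 scale. Without the vehicle libraries that stood apart, 38 members were lower and 18 higher in Dicer KO macrophages, and 30 were lower and 22 higher in control macrophages. Without Dicer KO LPS replicate 1, 39 were lower and 13 higher in Dicer KO macrophages.

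The members moved less than genes at large, but not less than all related lists. For nuclear-encoded respiratory chain subunits the interquartile range of log2 fold changes was 0.46 in Dicer KO and 0.39 in control macrophages. It was 0.24 and 0.17 for cytosolic ribosomal proteins, and 0.84 and 0.76 for mitochondrial tRNA synthetases and amidotransferase. The members are compared with all genes next. The interquartile range of their log2 fold changes was 0.89 in Dicer KO macrophages, where that of all genes was 1.61, and 0.67 in control macrophages, where that of all genes was 1.42. Changes of 2-fold or more that passed the test were made by 7 members downward and 3 upward in Dicer KO macrophages, against 23.3% and 18.9% of all genes. In control macrophages they were made by 3 members downward and 2 upward, against 20.1% and 17.8% of all genes. The LPS comparisons of the genotypes share no library: 14 members were higher in both, 30 were lower in both, and none was called in opposite directions. The 14 are 93.3% of those higher in Dicer KO macrophages and 63.6% of those higher in control macrophages, and the 30 are 76.9% of those lower in Dicer KO macrophages and 85.7% of those lower in control macrophages. Among all genes tested, those higher in both were 86.9% of the Dicer KO and 85.5% of the control calls, those lower in both were 82.7% and 85.9%, and 1.81% of genes were called in opposite directions. Across the 77 genes, which share the libraries, the log2 fold changes had a Pearson correlation of 0.90 and a Spearman correlation of 0.86, and across all 13837 genes of 0.93 and 0.92.

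**Figure D2:**
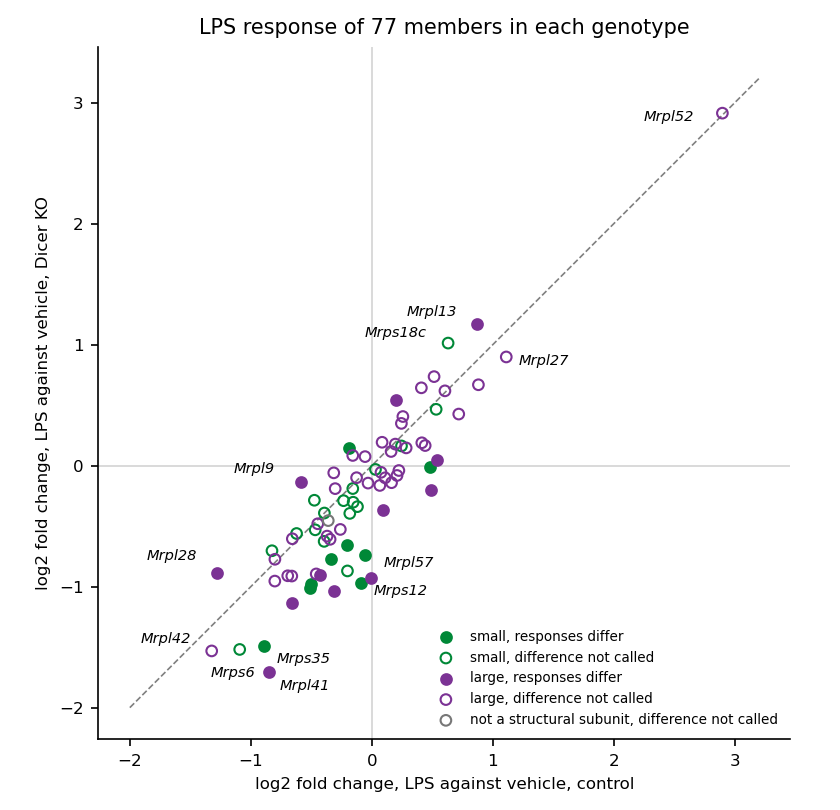
Log2 fold change with LPS of 77 members in Dicer KO macrophages (vertical axis) against that in control macrophages (horizontal axis), coloured by subunit. Mrpl52 lies apart from the rest at 2.91 in Dicer KO and 2.90 in control macrophages, and no member was called in opposite directions.

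Mrpl52 encodes a mitochondria-specific protein of the large subunit. Its level was 61.7, 58.3 and 58.5 CPM in Dicer KO LPS against 8.10, 7.62 and 7.93 CPM in Dicer KO vehicle. It was 51.0, 59.3 and 60.8 CPM in control LPS against 6.96, 7.54 and 8.48 CPM in control vehicle. Every LPS library was far above every vehicle library, and the genotypes overlapped within each treatment. The rise was 7.53-fold in Dicer KO macrophages (log2 2.91, SE 0.08, edgeR adjusted p = 2.32e-16) and 7.45-fold in control macrophages (log2 2.90, SE 0.08, edgeR adjusted p = 1.97e-16). The gene runs over chromosome 14 from 54426909 to 54429756 on the plus strand of GRCm38, and no other gene overlaps its exons. The next gene downstream on the same strand, 1856 bases on, is Mmp14, a membrane-bound matrix metalloproteinase. Mmp14 averaged 783 CPM in Dicer KO LPS against 3.21 CPM in Dicer KO vehicle, and 691 CPM in control LPS against 5.84 CPM in control vehicle. Whether the neighbour's change has a part in that of Mrpl52 was not tested.

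The promoters of 4 members with strong responses to LPS, 2 that rose and 2 that fell, are shown as the 250 bases before the annotated start, from RefSeq on GRCm38.p6, written 5′ to 3′ along the gene's strand. They were searched on both strands for CCGGAAGT (ETS factors such as GABP), AAGATGGCG (YY1), GCGCA followed at once by TGCGC (NRF1), GGGCGG (the GC box of SP and KLF factors), TGACGTCA (CRE), GGG and TTTCC with any 2 bases between them (NF-kappaB), GAAA and GAAA with any 2 bases between them (ISRE) and CACGTG (E-box), and capitals mark a match. The windows are chr14:54426659-54426908 on the plus strand for Mrpl52, chr11:94653541-94653790 on the plus strand for Mrpl27, chr10:95501950-95502199 on the minus strand for Mrpl42 and chr2:24975099-24975348 on the minus strand for Mrpl41.
Mrpl52: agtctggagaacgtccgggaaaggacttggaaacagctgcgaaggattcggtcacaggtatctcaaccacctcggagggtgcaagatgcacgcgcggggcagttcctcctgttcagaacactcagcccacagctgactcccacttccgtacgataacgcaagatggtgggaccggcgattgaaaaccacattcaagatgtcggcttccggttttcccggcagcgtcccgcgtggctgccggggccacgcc
Mrpl27: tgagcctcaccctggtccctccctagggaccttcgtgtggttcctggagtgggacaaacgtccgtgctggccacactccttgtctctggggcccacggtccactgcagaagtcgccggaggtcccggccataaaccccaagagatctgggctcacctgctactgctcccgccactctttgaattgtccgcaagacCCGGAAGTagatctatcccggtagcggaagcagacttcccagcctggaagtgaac
Mrpl42: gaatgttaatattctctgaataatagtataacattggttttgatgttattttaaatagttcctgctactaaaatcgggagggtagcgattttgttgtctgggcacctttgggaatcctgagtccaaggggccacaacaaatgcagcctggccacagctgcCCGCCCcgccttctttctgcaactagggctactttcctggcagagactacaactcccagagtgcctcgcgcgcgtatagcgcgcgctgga
Mrpl41: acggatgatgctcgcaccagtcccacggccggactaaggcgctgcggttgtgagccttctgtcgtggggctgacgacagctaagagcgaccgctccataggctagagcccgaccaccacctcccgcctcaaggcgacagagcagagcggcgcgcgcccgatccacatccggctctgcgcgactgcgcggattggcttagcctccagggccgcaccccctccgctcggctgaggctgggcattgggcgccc
The Mrpl27 window holds the ETS letters 55 to 48 bases before the start, and the Mrpl42 window holds the GC box 90 to 85 bases before it. The Mrpl52 and Mrpl41 windows held none of the 8 motifs, and just past the start Mrpl52 has the ETS letters on the other strand and Mrpl42 has those of YY1.

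Mrpl27, whose bacterial counterpart lies near the site of peptide bond formation, was at 60.2, 62.3 and 61.6 CPM in Dicer KO LPS against 31.6, 32.1 and 35.1 CPM in Dicer KO vehicle. In control macrophages it was at 57.1, 54.0 and 53.8 CPM with LPS against 23.6, 26.4 and 26.3 CPM with vehicle. The LPS and vehicle libraries did not overlap, and within each treatment the Dicer KO libraries lay above the control libraries. The rise with LPS was 1.86-fold in Dicer KO macrophages (log2 0.90, edgeR adjusted p = 9.37e-11) and 2.16-fold in control macrophages (log2 1.11, edgeR adjusted p = 4.40e-12). Eme1 overlaps 7.61% of the exon bases of Mrpl27 on the opposite strand. It rose with LPS by log2 1.29 in Dicer KO and 1.26 in control macrophages, and was higher in Dicer KO by 0.31 with LPS and 0.27 with vehicle. Whether Eme1 has a part in the counts of Mrpl27 was not tested.

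Mrpl13, a homolog of a bacterial large-subunit protein, was at 33.0, 31.9 and 33.1 CPM in Dicer KO LPS against 14.8, 14.6 and 14.2 CPM in Dicer KO vehicle. It was at 30.3, 25.9 and 25.5 CPM in control LPS against 14.5, 15.1 and 15 CPM in control vehicle. All LPS libraries were above all vehicle libraries, by log2 1.17 in Dicer KO and 0.87 in control macrophages. Mrps18c, the small-subunit gene with the largest rise in both genotypes, was 2.02-fold higher with LPS in Dicer KO macrophages and 1.55-fold higher in control macrophages, and 23.2% of its exon bases are shared with another gene on the same strand. The other members named for their rise with LPS were Mrpl30 and Mrpl39 in Dicer KO macrophages (log2 0.74 and 0.67, which became -0.01 and -0.08 under scaling by library totals), and Mrpl39 and Mrpl46 in control macrophages (log2 0.88 and 0.72). The direction of Mrpl52, Mrpl27, Mrpl13 and Mrps18c was upward in both genotypes under that scaling too, although Mrps18c and Mrpl46 then did not pass the test in control macrophages (0.11 and 0.20).

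**Figure D3:**
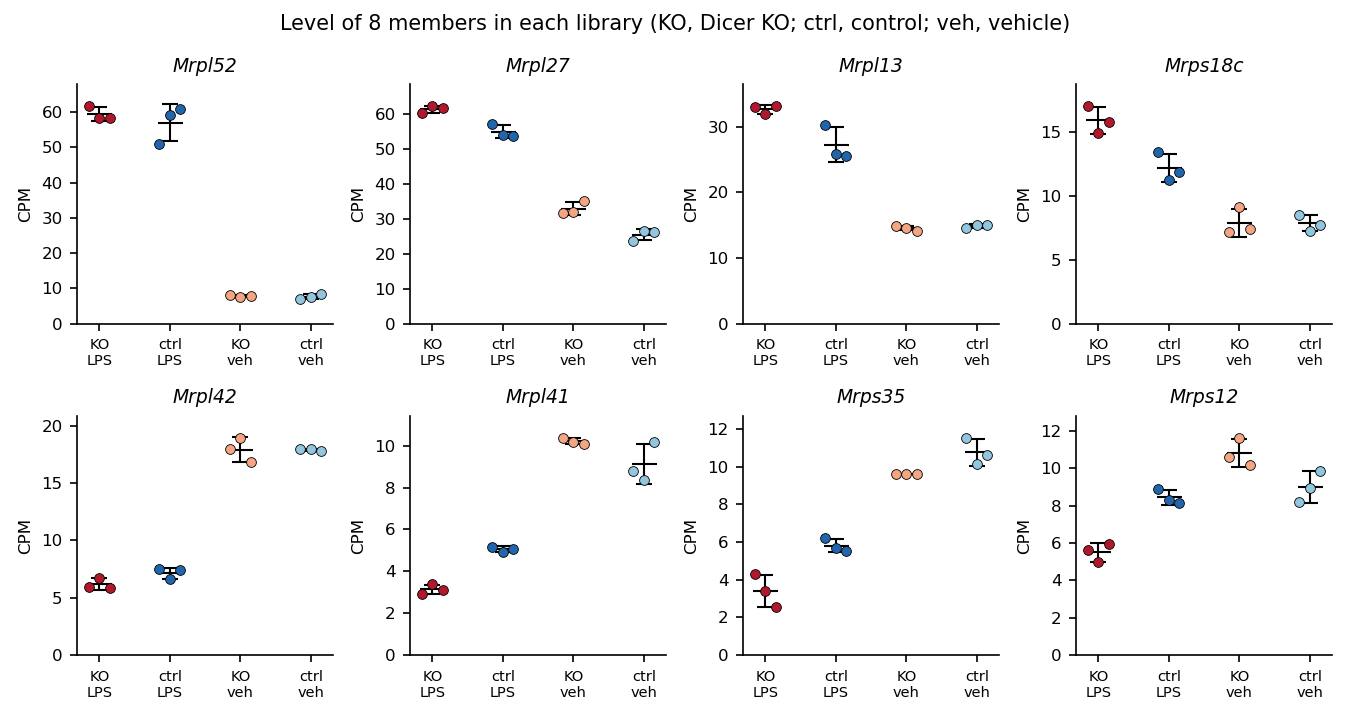
Level (CPM, TMM-scaled) of 8 members in each library, with the mean and SD of 3 libraries. Mrpl52, Mrpl27, Mrpl13 and Mrps18c are higher in all LPS libraries than in vehicle libraries of the same genotype, Mrpl42, Mrpl41 and Mrps35 are lower, and Mrps12 is lower with LPS in the Dicer KO libraries while its control groups overlap.

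The largest falls with LPS in Dicer KO macrophages were those of Mrpl41 and Mrpl42, which encode mitochondria-specific proteins of the large subunit. Mrpl42 was at 5.94, 6.76 and 5.88 CPM in Dicer KO LPS against 18, 18.9 and 16.8 CPM in Dicer KO vehicle. It was at 7.47, 6.60 and 7.38 CPM in control LPS against 17.9, 18 and 17.8 CPM in control vehicle. All LPS libraries were below all vehicle libraries, 2.89-fold lower on average in Dicer KO macrophages (log2 -1.53, SE 0.09, edgeR adjusted p = 2.23e-11) and 2.5-fold lower in control macrophages (log2 -1.32, SE 0.09, edgeR adjusted p = 7.88e-11). Mrpl41 was at 2.93, 3.38 and 3.09 CPM in Dicer KO LPS against 10.4, 10.2 and 10.1 CPM in Dicer KO vehicle. In control macrophages it was at 5.18, 4.90 and 5.09 CPM with LPS against 8.78, 8.35 and 10.2 CPM with vehicle. The LPS libraries were the lower ones in both genotypes, and the Dicer KO LPS libraries were below the control LPS libraries. The fall was 3.26-fold in Dicer KO macrophages (log2 -1.70, edgeR adjusted p = 2.99e-10) and 1.80-fold in control macrophages (log2 -0.85, edgeR adjusted p = 1.08e-06). Mrpl41 starts 935 bases from the start of Pnpla7, a lysophospholipase gene on the other strand, which was itself lower with LPS, by log2 -2.96 in Dicer KO and -3.41 in control macrophages.

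Among small-subunit genes, Mrps35 was at 4.28, 3.38 and 2.56 CPM in Dicer KO LPS against 9.59, 9.63 and 9.61 CPM in Dicer KO vehicle. It was at 6.22, 5.69 and 5.52 CPM in control LPS against 11.5, 10.1 and 10.6 CPM in control vehicle. The LPS groups lay below the vehicle groups without overlap, 2.82-fold in Dicer KO and 1.85-fold in control macrophages. Mrps6, a homolog of bacterial S6, fell by 1.52 on the log2 scale in Dicer KO and by 1.09 in control macrophages. However, 19.9% of its exon bases are shared on the same strand with Gm49711 or Slc5a3, and the share of each alone is not given here. The changes of Slc5a3 were -3.62 in Dicer KO and -2.22 in control macrophages. Mrpl28, a homolog of bacterial L28, was at 13.7 ± 0.544 CPM in Dicer KO LPS against 25.3 ± 1.63 CPM in Dicer KO vehicle, and at 11.7 ± 1.22 CPM in control LPS against 28.3 ± 1.41 CPM in control vehicle (log2 -0.89 and -1.28). Mrpl50 and Mrpl2 in Dicer KO macrophages fell by 1.14 and 1.03. In control macrophages Mrps25 fell by 0.83, with 69.8% of its exon bases overlapped by a gene on the opposite strand.

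By role, calls were counted for each subunit. In Dicer KO macrophages 18 of 26 small-subunit genes were lower with LPS and 2 were higher, with a median log2 fold change of -0.46, while 20 of 50 large-subunit genes were lower and 13 higher, with a median of -0.10. These are 69.2% and 40% lower, where 42.7% of all genes were lower and 37.4% higher. In control macrophages 14 small-subunit genes were lower and 4 higher (median -0.20), and 20 large-subunit genes were lower and 18 higher (median 0.07, but -0.45 under scaling by library totals). These are 53.8% and 40% lower, where 41.1% of all genes were lower and 38% higher. The small-subunit genes lower in control macrophages numbered 13 with a replicate block, 12 with size factors of the relative log expression type, and 11 both with DESeq2 and without the vehicle libraries that stood apart, which is near that share, while in Dicer KO macrophages they numbered 17 to 18 under the same settings. The difference of the medians, small minus large, was -0.36 in Dicer KO and -0.28 in control macrophages. By ancestry, 17 of 29 mitochondria-specific members were lower and 6 higher in Dicer KO macrophages (median -0.45), and 21 of 45 bacterial homologs were lower and 9 higher (median -0.16), so that 58.6% and 46.7% were lower. The 29 mitochondria-specific members, here and below, include Mrps36, which is in neither subunit and was lower with LPS in both genotypes. These are counts and medians of the listed genes, and no test was made of the difference between lists.

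The genotypes were then compared under LPS. Relative to control LPS, 29 of 77 members were lower in Dicer KO LPS (37.7%) and 12 were higher (15.6%), by edgeR's quasi-likelihood test, where 27% of all genes were lower and 28.8% higher. The median was -0.08 for members and -0.03 for all genes. No member passed the test with a difference of 2-fold or more, where 6.63% of all genes were lower and 6.1% higher by that much. The lower calls took in 13 of 26 small-subunit genes (median -0.26) and 16 of 50 large-subunit genes (median -0.06), and the higher calls took in 3 and 9 of them. By ancestry they were 14 of 29 mitochondria-specific members, with 2 higher, and 14 of 45 bacterial homologs, with 10 higher. With size factors of the relative log expression type in place of TMM the counts were 26 lower and 17 higher, the median was -0.03 for members and 0.02 for all genes, and large-subunit genes split into 14 lower and 14 higher. With library totals 58 were lower and 1 higher, and without Dicer KO LPS replicate 1, 25 were lower and 12 higher.

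Mrps35 had the largest fall in this comparison, with the levels given above, 1.70-fold lower in Dicer KO LPS than in control LPS (log2 -0.77, SE 0.15, edgeR adjusted p = 3.53e-04). Mrps18b was at 5.86, 7.66 and 6.03 CPM in Dicer KO LPS against 11.5, 11.7 and 8.93 CPM in control LPS (log2 -0.72, edgeR adjusted p = 2.32e-04), and 30.5% of its exon bases are overlapped by a gene on the opposite strand. Mrpl2, a homolog of the bacterial L2 protein near the peptidyl transferase centre, was at 8.04, 11.9 and 9.64 CPM in Dicer KO LPS against 15.6, 15.7 and 14.7 CPM in control LPS. Neither gene's groups overlapped. Mrpl41 was lower by log2 -0.69, and Mrps12, the homolog of the bacterial S12 protein that helps to set decoding accuracy, and Mrps26 were each lower by -0.61.

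Of those higher in Dicer KO LPS, Mrpl1, a homolog of the bacterial L1 stalk protein, came first. It was at 17.3, 17.1 and 17.4 CPM in Dicer KO LPS against 12.1, 10.5 and 11.5 CPM in control LPS, 1.52-fold higher without overlap (log2 0.61, SE 0.08, edgeR adjusted p = 7.05e-06). It was also higher with vehicle, at 17.3, 18.7 and 18.1 CPM in Dicer KO vehicle against 15, 13.9 and 13.5 CPM in control vehicle (log2 0.35, edgeR adjusted p = 8.56e-04). Mrps22, a mitochondria-specific small-subunit protein, was higher in Dicer KO macrophages under both treatments, at 10.8 ± 1.29 CPM against 7.70 ± 0.652 CPM with LPS and at 7.79 ± 0.406 CPM against 5.32 ± 0.483 CPM with vehicle. The others named here were Mrpl30 (0.40), Mrps18c (0.39), Mrpl9 (0.38) and Mrpl3 (0.36), as log2 fold changes. Under scaling by library totals Mrpl1 kept its call at 0.25, while the other 5 were at 0.01 to 0.13 and did not pass.

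**Figure D4:**
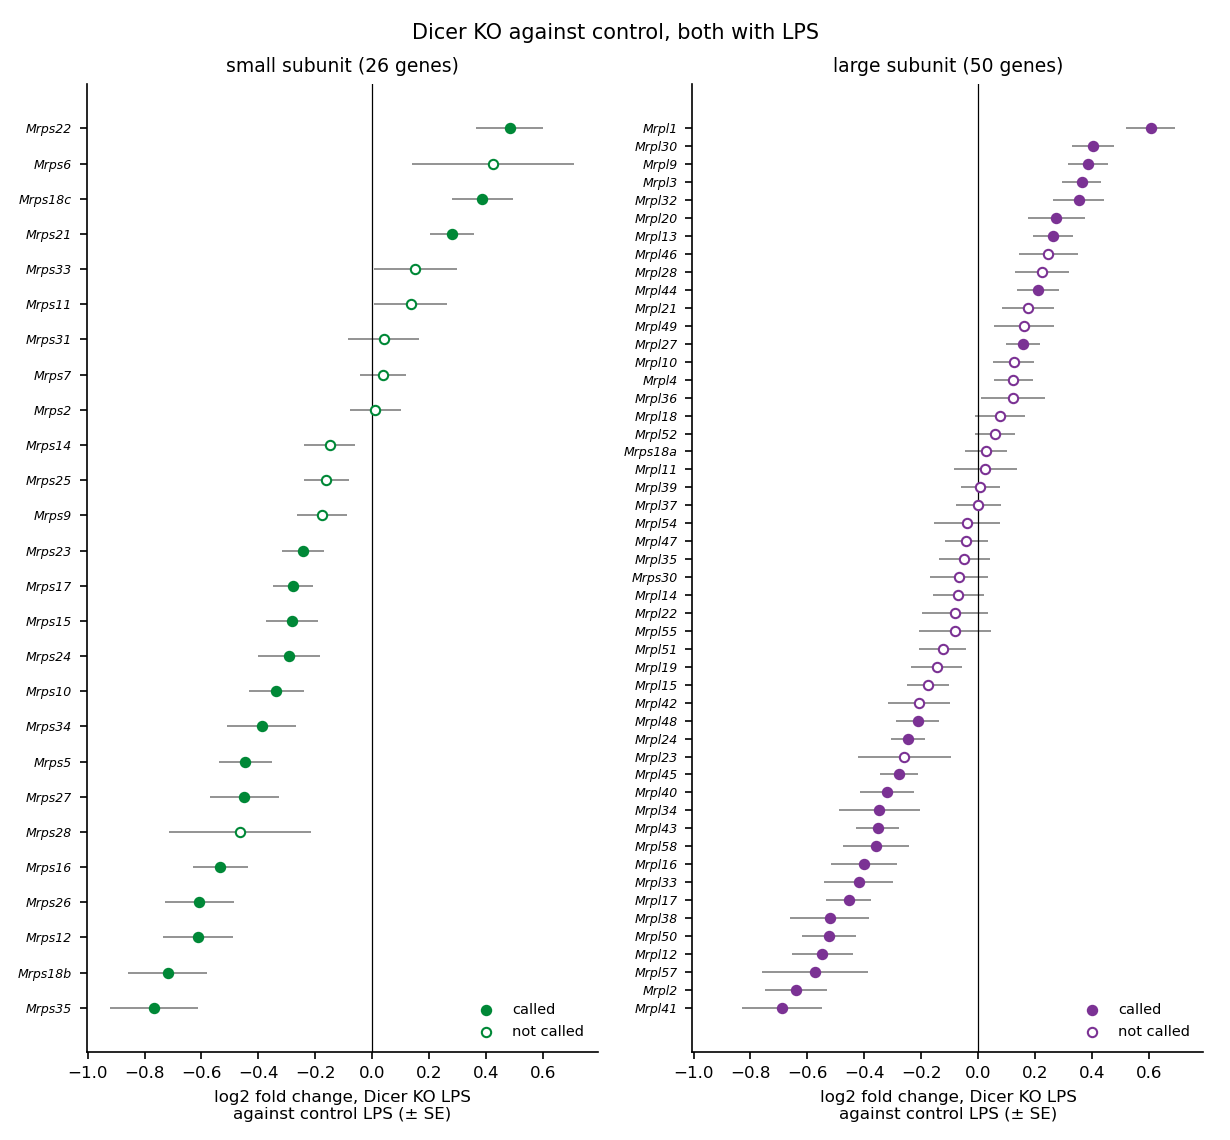
Log2 fold change of each small-subunit and large-subunit gene in Dicer KO LPS against control LPS, with its SE; filled points passed the test at an adjusted p under 0.05. The values run from -0.77 for Mrps35 to 0.61 for Mrpl1, and 13 of 26 small-subunit and 16 of 50 large-subunit genes were lower.

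With vehicle, fewer members differed by genotype. Relative to control vehicle, 12 of 77 were higher in Dicer KO vehicle (15.6%) and 6 were lower (7.79%), by edgeR's quasi-likelihood test, where 25% of all genes were higher and 21.2% lower. The median was 0.04 for members and 0.01 for all genes, and -0.08 for members under scaling by library totals, which gave 6 higher and 19 lower. Without the vehicle libraries that stood apart, 15 members were higher and 8 lower. Mrps6 had the largest rise, at 7.86, 9.27 and 9.01 CPM in Dicer KO vehicle against 3.93, 3.71 and 6.85 CPM in control vehicle (log2 0.85, edgeR adjusted p = 0.00167). The groups did not overlap, although control vehicle replicate 3 lay close to the Dicer KO libraries. Slc5a3, which like Gm49711 overlaps exons of Mrps6, was higher by 0.86. Without control vehicle replicate 3 the difference in Mrps6 was 1.19. Mrpl46 (log2 0.54), Mrps22 (0.55), Mrpl22 (0.41), Mrpl27 (0.37) and Mrpl1 (0.35) followed. Lower in Dicer KO vehicle were Mrpl33 (9.49 ± 0.763 CPM against 12.9 ± 0.891 CPM in control vehicle, log2 -0.45), Mrpl24 (-0.36), Mrps17 (-0.34), Mrps16 (-0.31), Mrpl45 (-0.29) and Mrps25 (-0.28).

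The genotype comparisons under LPS and vehicle share no library. Mrpl1, Mrpl27 and Mrps22 were higher in Dicer KO macrophages in both, and Mrpl24, Mrpl33, Mrpl45, Mrps16 and Mrps17 were lower in both. Mrpl45, the protein at the exit of the large subunit that in the human ribosome meets the inner membrane, was at 37.5 ± 1.36 CPM in Dicer KO LPS against 45.5 ± 2.63 CPM in control LPS, and at 24.4 ± 0.676 CPM in Dicer KO vehicle against 29.9 ± 2.32 CPM in control vehicle. It was thus lower by genotype in both treatments and higher with LPS in both genotypes. Mrpl16 and Mrps12 were higher in Dicer KO vehicle and lower in Dicer KO LPS than in the matching controls. The other 22 members that were lower in Dicer KO LPS were not called with vehicle.

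The difference between the LPS responses, Dicer KO minus control, was tested as an interaction. It was negative for 16 members (20.8%) and positive for 5 (6.49%), by edgeR's quasi-likelihood test, where 18.8% of all genes were negative and 14.9% positive. The median was -0.15 for members and -0.04 for all genes. With relative log expression size factors 15 were negative and 8 positive, and with library totals 43 and 1. Without the vehicle libraries that stood apart, 19 were negative and 4 positive. Without control vehicle replicate 3 alone, 25 were negative, and without Dicer KO LPS replicate 1, 14 were negative and 4 positive. The positive calls numbered 1 without control LPS replicate 2, 2 without Dicer KO LPS replicate 2, and 3 when either replicate 3 of Dicer KO LPS, replicate 3 of control LPS or replicate 2 of control vehicle was left out. Among the negative calls were 8 of 26 small-subunit and 8 of 50 large-subunit genes, and 7 of 29 mitochondria-specific members, none of which was positive.

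Mrps12 had the smallest adjusted p among them. It was at 5.64, 4.96 and 5.95 CPM in Dicer KO LPS against 10.6, 11.6 and 10.2 CPM in Dicer KO vehicle, and at 8.91, 8.29 and 8.12 CPM in control LPS against 8.17, 8.96 and 9.86 CPM in control vehicle. The Dicer KO groups did not overlap and the control groups did. Its LPS response was -0.97 in Dicer KO macrophages and -0.09 in control macrophages, an interaction of -0.88 (SE 0.16, edgeR adjusted p = 3.18e-04). Mrpl57 had an LPS response of -0.93 in Dicer KO and -0.00 in control macrophages (interaction -0.92, SE 0.24, edgeR adjusted p = 0.00661). Mrpl41 (-0.85), Mrpl2 (-0.72), Mrpl16 (-0.69) and Mrps18b (-0.68) followed, all with the greater fall in Dicer KO macrophages except Mrpl16, which rose with LPS in control macrophages and was not called in Dicer KO macrophages. Each of these 6 kept its call when any single library was left out.

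Mrpl9 had the largest positive interaction. It was at 26.3, 26.5 and 27.9 CPM in Dicer KO LPS against 28.4, 29.5 and 30.5 CPM in Dicer KO vehicle, and at 22.1, 19.7 and 20.1 CPM in control LPS against 30.7, 29.7 and 32.4 CPM in control vehicle. Both LPS groups lay below their vehicle groups, although the response of -0.13 in Dicer KO macrophages did not pass the test and that of -0.59 in control macrophages did (interaction 0.46, SE 0.09, edgeR adjusted p = 0.00101). The other positive calls were Mrpl28 (0.39), Mrpl32 (0.34), Mrps21 (0.34) and Mrpl13 (0.30). Each of these 4 lost its call without some single library. Mrpl28 was at 0.34 without control LPS replicate 2 and 0.35 without Dicer KO LPS replicate 2, and Mrps21 was at 0.31, 0.28 and 0.31 without control LPS replicate 2, Dicer KO LPS replicate 2 or Dicer KO vehicle replicate 3. Mrpl13 lost its call without any of 7 libraries, at 0.24 to 0.30, and kept it without control LPS replicate 1, control vehicle replicates 1 and 3, Dicer KO LPS replicate 2 or Dicer KO vehicle replicate 1. Mrpl32 lost its call without any of 9 libraries, at 0.25 to 0.37, and kept it without control LPS replicate 1, control vehicle replicate 3 or Dicer KO vehicle replicate 3.

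Some members are known for more than a structural part. Mrpl12, the homolog of the bacterial L7/L12 stalk protein, was at 10.9, 11 and 10.8 CPM in Dicer KO LPS against 15.9, 15.8 and 16.2 CPM in control LPS, and at 19.1, 21 and 21.2 CPM in Dicer KO vehicle against 18.9, 20.5 and 25.2 CPM in control vehicle. It was lower with LPS in both genotypes and lower by genotype under LPS (log2 -0.55), with an interaction of -0.47, and the vehicle groups overlapped. Mrpl58, the large-subunit protein that frees stalled chains from the ribosome, fell with LPS by 0.91 in Dicer KO and by 0.69 in control macrophages, and its genotype difference under LPS of -0.36 became -0.29 and was lost without control LPS replicate 2 (edgeR adjusted p = 0.0745). Mrps36 fell with LPS by 0.45 in Dicer KO macrophages and by 0.36 in control macrophages, where the call was lost without any of 3 libraries, control LPS replicate 2 (-0.24), control LPS replicate 3 (-0.32) or control vehicle replicate 3 (-0.30).

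The Mrps18 genes are paralogs that descend from a bacterial S18 protein, and they did not move alike. With LPS in Dicer KO macrophages, Mrps18c rose by log2 1.01, Mrps18b fell by 0.74 and Mrps18a, which sits in the large subunit, was not called at 0.15 (-0.60 under scaling by library totals). In control macrophages Mrps18c rose by 0.63, Mrps18a rose by 0.28 (-0.24 under that scaling) and Mrps18b was not called at -0.06. Mrpl55 was not called with LPS in Dicer KO macrophages at 0.19 and rose by 0.41 in control macrophages (-0.56 and -0.11 under that scaling). Members called in none of the 5 comparisons were Mrpl11, Mrpl14, Mrpl15, Mrpl37, Mrps7, Mrps11 and Mrps30. Mrps7, for example, averaged 26.7 ± 2.56 CPM in Dicer KO LPS, 26 ± 1.29 CPM in control LPS, 27.3 ± 1.36 CPM in Dicer KO vehicle and 25.5 ± 1.93 CPM in control vehicle. The other 70 members (90.9%) were called at least once, as were 93.5% of all genes, and 18 (23.4%) were called in 4 or more comparisons, where 41.6% of all genes were.

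Compared per length, as CPM divided by kilobases of exon, the genes were far from equal. In control vehicle the highest were Mrpl24 (30.4 ± 1.59), Mrps21 (29.9 ± 2.09) and Mrpl27 (25.8 ± 1.62), whose neighbours in that order overlap in their SDs for the first pair only. The lowest were Mrps22 (1.33), Mrps35 (1.25) and Mrps10 (1.25). The median over the 77 was 5.07 in Dicer KO LPS, 5.12 in control LPS, 6.18 in Dicer KO vehicle and 6.22 in control vehicle. With LPS, Mrpl27 was at 62.3 ± 1.07 in Dicer KO LPS and 55.8 ± 1.90 in control LPS, and Mrpl52 at 53.6 ± 1.73 in Dicer KO LPS and 51.4 ± 4.74 in control LPS, where the SDs of the pair overlap. The exon length used is the union over all annotated transcripts, which can understate the level of genes with long rare transcripts.

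Exon overlap limits what the counts of some members show. At least 5% of exon bases were shared with another gene in 25 of the 78, for 21 on the opposite strand and for 5 on the same strand. Genes whose exons are almost wholly covered on the opposite strand were expressed in 123 of 266 cases, and those covered on the same strand in 6 of 173, and the strand setting of the counting is not given in the sources used here. Reads of such a member therefore cannot be told apart from those of its opposite-strand partner. Without the overlapped genes 53 members remained: 29 were lower and 10 higher with LPS in Dicer KO macrophages (median -0.34), and 27 were lower and 17 higher in control macrophages (median -0.19). The shares lower were 54.7% and 50.9%, where 42.7% and 41.1% of all genes were lower. Under LPS 21 of the 53 were lower (39.6%) and 8 higher in Dicer KO than in control macrophages (median -0.15), where 27% of all genes were lower.

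Members often share a start region with a gene on the other strand. A start within 1000 bases of an opposite-strand start was found for 33 of 78 members (42.3%) and for 17.1% of the 11810 protein-coding genes tested. Such partners need not move alike here. Mrpl46 and Mrps11, themselves such a pair with starts 412 bases apart, differed: Mrpl46 rose with LPS by 0.43 in Dicer KO and 0.72 in control macrophages, and Mrps11 was not called at -0.19 and -0.16. Their exons overlap, over 12.2% of the exon bases of Mrpl46 and 7.97% of those of Mrps11. Other pairs rose together in both genotypes, such as Mrpl30 with Mitd1 (1.18 and 1.93 for Mitd1) and Mrpl32 with Psma2 (1.63 and 1.46 for Psma2). Pairs that did and did not move alike were not counted. Mrps12 starts 172 bases from Sars2, the mitochondrial seryl-tRNA synthetase gene, which fell by 0.66 in Dicer KO and by 0.31 in control macrophages.

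Among the 69 members with a promoter in the RefSeq table, the window from 250 bases before to 50 after the start held the ETS letters in 12 (17.4%, where 9.34% of 9980 tested genes held them). The YY1 letters were in 8 (11.6%, where 3.63% of tested genes held them), the NRF1 letters in 3 (4.35% and 2.36%) and the GC box in 34 (49.3% and 66.8%). The CRE letters were in 2 (2.90% and 3.56%), the E-box in 5 (7.25% and 11.7%), the ISRE letters in 3 (4.35% and 4.14%) and the NF-kappaB letters in none (2.16% of tested genes). These matches describe the letters of the windows only. The factors' own genes were measured: Gabpb1, a GABP subunit gene, rose with LPS by 1.18 in Dicer KO and 1.19 in control macrophages, Gabpb2 fell by 0.71 and 0.89, and Gabpa was not called in Dicer KO macrophages at 0.04 (-0.71 under scaling by library totals) and rose by 0.29 in control macrophages (-0.23 under that scaling).

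Among the listed regulators of mitochondrial gene programmes other than these GABP genes, 6 were tested. With LPS 3 were higher and 2 lower in Dicer KO macrophages, where 37.4% of all genes were higher and 42.7% lower. In control macrophages 4 were higher and 1 lower, where 38% of all genes were higher and 41.1% lower. Esrra, the nuclear receptor ERR-alpha, averaged 76.8 ± 3.5 CPM in Dicer KO LPS against 33.9 ± 3.2 CPM in Dicer KO vehicle, and 89.2 ± 7.2 CPM in control LPS against 26.8 ± 1.5 CPM in control vehicle. Ppargc1b, a coactivator of such receptors, rose by 1.57 and 1.1, and Nrf1 rose by 0.44 in Dicer KO macrophages (-0.31 under scaling by library totals) and by 0.68 in control macrophages. Pprc1, a relative of that coactivator, fell by 0.90 in Dicer KO macrophages and was not called in control macrophages at 0.27. Myc was not called in Dicer KO macrophages at -0.20 and fell by 1.23 in control macrophages. Yy1 fell by 0.18 in Dicer KO macrophages and rose by 0.16 in control macrophages (-0.36 under scaling by library totals).

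The partners of the mitochondrial ribosome were counted from lists of named genes. Of the 22 mitochondrial tRNA synthetase and amidotransferase genes, which charge the tRNAs it uses, 19 were lower and 2 higher with LPS in Dicer KO macrophages (median -1.14), and 14 were lower and 2 higher in control macrophages (median -0.49). These are 86.4% and 63.6% lower, where 42.7% and 41.1% of all genes were lower. Under LPS, 12 were lower and 2 higher in Dicer KO than in control macrophages (median -0.38), where 27% of all genes were lower. Their summed level was 621 ± 26.7 CPM in Dicer KO LPS against 555 ± 8.62 CPM in Dicer KO vehicle. It was 525 ± 20.1 CPM in control LPS against 565 ± 4.88 CPM in control vehicle (SD, n = 3 each). Mars2, for methionine, averaged 0.451 ± 0.075 CPM in Dicer KO LPS against 6.58 ± 0.57 CPM in Dicer KO vehicle, and 1.75 ± 0.29 CPM in control LPS against 6.09 ± 0.31 CPM in control vehicle. Iars2 fell by 1.25 and 0.87, and Kars, which serves cytosol and mitochondria, rose by 1.46 and 0.94. Aars2 and Tars2 were lower in Dicer KO LPS than in control LPS by 1.30 and 0.88 on the log2 scale.

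Of 29 assembly and rRNA modification genes, 18 were lower and 5 higher with LPS in Dicer KO macrophages (median -0.49). In control macrophages 14 were lower and 5 higher (median -0.36). These are 62.1% and 48.3% lower, where 42.7% and 41.1% of all genes were lower. Rbfa, which matures the small subunit, averaged 6.54 ± 1.3 CPM in Dicer KO LPS against 46.8 ± 3.4 CPM in Dicer KO vehicle, and 13.4 ± 0.77 CPM in control LPS against 48.6 ± 1.1 CPM in control vehicle. Its fall was 2.84 on the log2 scale in Dicer KO and 1.86 in control macrophages. Mtg1, a GTPase of large-subunit assembly, fell by 2.24 and 1.34, and Mrm1, an rRNA methyltransferase, fell by 1.57 and 1.45. Of 16 translation factors, 10 were lower and 1 higher in Dicer KO macrophages (median -0.44). In control macrophages 8 were lower and 2 higher (median -0.24). These are 62.5% and 50% lower, beside the same shares of all genes. Initiation factor Mtif3 fell by 2.02 and 1.71, and Tufm, the elongation factor that brings charged tRNAs, was not called at 0.02 and 0.03.

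Of 15 genes of mitochondrial DNA transcription and maintenance, 7 were lower and 5 higher with LPS in Dicer KO macrophages. In control macrophages 8 were lower and 3 higher. These are 46.7% and 53.3% lower, where 42.7% and 41.1% of all genes were lower. Lrpprc and Slirp, whose proteins bind and stabilise mitochondrial mRNAs together, went opposite ways: Lrpprc fell by 1.19 in Dicer KO and 1.04 in control macrophages, and Slirp rose by 1.11 and 0.89. Polrmt, the mitochondrial RNA polymerase, fell by 1.25 and 0.71. Of the 5 ribosomal protein genes with other names, such as Dap3, 1 was lower and none higher in Dicer KO macrophages. In control macrophages 2 were lower and 1 higher. These are 20% and 40% lower, beside the same shares of all genes. The 13 protein genes of mitochondrial DNA itself were at 0 in every library, so the products of the ribosome could not be followed.

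Other gene groups of similar size are set beside the members here. Of 76 cytosolic ribosomal protein genes, 72 were lower and 1 higher in Dicer KO vehicle than in control vehicle (median -0.33), and 55 were lower and 2 higher in Dicer KO LPS than in control LPS (median -0.21), while the medians of the members were 0.04 and -0.08. Of all genes, 21.2% were lower and 25% higher by genotype with vehicle, and 27% were lower and 28.8% higher under LPS. Of 78 nuclear-encoded respiratory chain subunits, 34 were higher and 18 lower with LPS in Dicer KO macrophages (median 0.12), and 27 were higher and 16 lower in control macrophages (median 0.05), while the medians of the members were -0.20 and -0.15. Of all genes, 37.4% were higher and 42.7% lower with LPS in Dicer KO macrophages, and 38% and 41.1% in control macrophages. The higher calls of these subunits in control macrophages were thus not above the share of all genes. These differences between lists were not tested. Proliferation markers moved with LPS as well, with 7 of 8 lower in both genotypes, beside the same shares of all genes. They summed to between 272 and 279 CPM in Dicer KO LPS against 428 to 556 CPM in Dicer KO vehicle, and to between 255 and 261 CPM in control LPS against 312 to 505 CPM in control vehicle. Their part in the changes of the members was not tested.

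**Figure D5:**
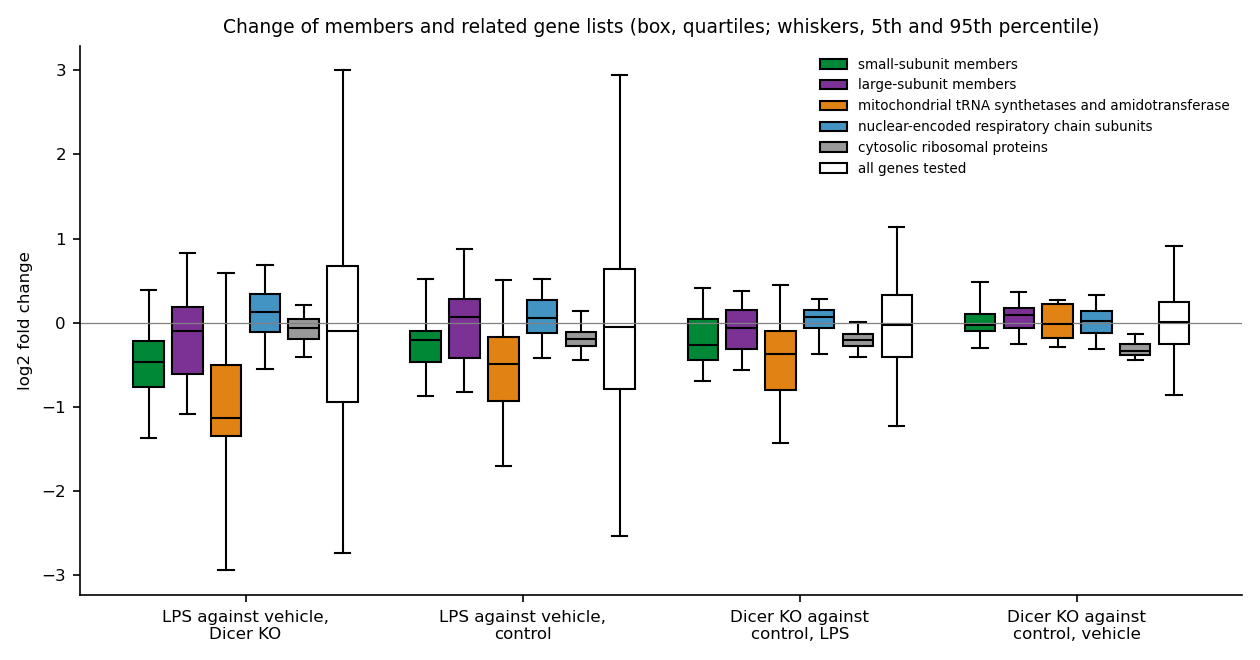
Log2 fold changes of the members and related gene lists in the LPS and genotype comparisons (box, quartiles and median; whiskers, 5th and 95th percentile). The tRNA synthetases have the lowest median with LPS in Dicer KO macrophages (-1.14), the cytosolic ribosomal proteins the lowest in Dicer KO against control vehicle (-0.33), and the boxes of both subunits are narrower than that of all genes in all 4 comparisons.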

How the data were processed

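The authors' deposited files hold raw read counts per Ensembl gene for each of 12 libraries of bulk RNA, from a stranded mRNA library kit, per the labels' protocols. Per the submitters' processing notes, STAR 2.5, DESeq2, mm10 and GRCm38.p5 were named, and the sources used here do not give the counting program or its strand setting. Rows that name no gene held 56.7% to 58.3% of each file's counts and were left out. Identifiers were matched to GENCODE M21 (45143 of 46078). Counts were fitted with edgeR 4.0.16 (limma 3.58.1, R 4.3.3): TMM scaling, filterByExpr (13837 genes), a mean per group over all 12 libraries, the robust quasi-likelihood test and Benjamini-Hochberg adjustment over all genes, called at 0.05. The common biological coefficient of variation was 6.30%. The fit was tested on simulated data. DESeq2 1.42.0 was an alternative. The libraries held 16172600 to 18886948 gene counts, and the lowest member count was 23.

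The members and lists were chosen with earlier results of these data known. In each comparison the text names up to 6 members with the largest rise and 6 with the largest fall among those called at a mean of at least 5 CPM in the higher group. It also names members called nowhere, Mrpl12, Mrpl55, Mrpl58, Mrps30, Mrps36 and the Mrps18 paralogs, up to 3 genes of each partner list, all regulators tested, the 3 highest and 3 lowest members per length, and Dicer1, Lyz2 and Apoe as label checks. Apoe averaged 1.20 CPM in Dicer KO LPS, 4.24 CPM in control LPS, 5.61 CPM in Dicer KO vehicle and 17.9 CPM in control vehicle. Neighbouring genes and Mrps7 were named after their values were seen. Replicate numbers were not used to pair the libraries in the main fit.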

Additional observations from a re-analysis of the deposited data

Results flagged for a closer look

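The LPS response differed between the genotypes, by the interaction term of edgeR's quasi-likelihood fit at an adjusted p under 0.05, for 12 of the members named in the report and for 18 of the named partner genes. Genes were named in part for such calls, so these counts do not show how common the calls are. Over all 77 members 20.8% were negative and 6.49% positive, where 18.8% of all genes were negative and 14.9% positive. Values are log2, Dicer KO minus control, with 3 libraries a group, and their causes were not tested. Among the members the response was higher in Dicer KO macrophages for Mrpl9 (0.46), Mrpl28 (0.39), Mrpl32 (0.34), Mrps21 (0.34) and Mrpl13 (0.30). It was lower for Mrpl57 (-0.92), Mrps12 (-0.88), Mrpl41 (-0.85), Mrpl2 (-0.72), Mrpl16 (-0.69), Mrps18b (-0.68) and Mrpl12 (-0.47).

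Among the partners the largest differences were those of Mars2 (-2.05), the mitochondrial methionyl-tRNA synthetase, of Pprc1 (-1.17), a coactivator, and of Myc (1.03), a transcription factor. The response was also lower in Dicer KO macrophages for Rbfa (-0.98), Taco1 (-0.95), Gars (-0.67), Esrra (-0.56), Polrmt (-0.54) and Ddx28 (-0.43). Smaller negative values were those of Gadd45gip1 (-0.40), Dhx30 (-0.38), Yy1 (-0.34), Gfm1 (-0.29), Nrf1 (-0.25) and Gabpa (-0.25). It was higher in Dicer KO macrophages for Lars2 (0.66), Ssbp1 (0.54) and Polg2 (0.52).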

How the results depend on the processing

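Scaling mattered most. With library totals in place of TMM, members higher and lower numbered 4 and 69 for LPS in Dicer KO macrophages (median -0.95), 4 and 62 for LPS in control macrophages (-0.68), 1 and 58 for genotype under LPS (-0.43), 6 and 19 for genotype under vehicle (-0.083) and 1 and 43 for the interaction (-0.38). The median of the members minus that of all genes was nearly the same as under TMM. The direction turned for genotype under LPS of Mrps18a (-0.33), Aurkaip1 (-0.20), Ptcd3 (-0.028), Gabpb1 (-0.086) and Gabpb2 (-0.24). It turned for LPS in control macrophages of Mrpl55 (-0.11), Mrps18a (-0.24), Mrps30 (-0.31), Gadd45gip1 (-0.27), Gabpa (-0.23) and Yy1 (-0.36), and in Dicer KO macrophages of Mrpl55 (-0.56), Mrps18a (-0.60), Mrpl30 (-0.012), Mrpl39 (-0.079), Gabpa (-0.71) and Nrf1 (-0.31).

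With relative log expression size factors the median was -0.12 for LPS in Dicer KO macrophages, -0.029 for genotype under LPS and -0.10 for the interaction, with 8 positive calls. DESeq2 gave -0.14 for LPS in Dicer KO macrophages. With no low-count filter 7 members were higher in Dicer KO vehicle, and the median for LPS in control macrophages was -0.20. Without members with exon overlap it was -0.34 for LPS in Dicer KO macrophages and -0.15 for genotype under LPS, and without both vehicle libraries that stood apart it was -0.094 for LPS in control macrophages. The cause of these shifts was not tested.

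Leaving out each library in turn gave 13 to 15 higher, 37 to 40 lower and medians of -0.26 to -0.18 for LPS in Dicer KO macrophages, and 20 to 22, 30 to 35 and -0.17 to -0.093 for LPS in control macrophages. The ranges were 9 to 14, 25 to 29 and -0.14 to -0.081 for genotype under LPS, 8 to 16, 6 to 8 and 0.013 to 0.071 for genotype under vehicle, and 1 to 7, 13 to 25 and -0.20 to -0.11 for the interaction. Same-numbered libraries had correlations of -0.23 to 0.18 over 18 pairs, of which 4 were over 0.1. With 3 libraries a group, low correlations cannot exclude a pairing, and the main fit used none. A replicate block moved no count by over 1.5 times and no median by more than the spread between libraries, and 8 of 214 named values crossed the threshold. Fitting only the libraries compared does not apply to the interaction.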
